A study of Mus musculus with 11 samples.

Results

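Ganglion cells, the neurons that carry the output of the retina to the brain, are made and kept by a small group of transcription factors. The 10 described here, named by gene symbol, were Pou4f1, Pou4f2 and Pou4f3 (also called Brn3a, Brn3b and Brn3c), Isl2, Atoh7, Ebf1, Ebf2, Ebf3, Klf7 and Sox11. They are 10 of the 47069 genes in the count tables, and each passed the low-count filter that left 18188 genes for testing. RNA was sequenced from the retinas of C57BL/6 mice in 11 libraries: 2 wild type and 3 Brn3b-Kir2.1 at postnatal day 4 (P4), and 3 wild type and 3 Brn3b-Kir2.1 at postnatal day 8 (P8). Brn3b-Kir2.1 animals combine a Brn3b-cre line with a CAG-driven transgene that encodes human Kir2.1 joined to eYFP behind a STOP cassette that Cre removes. Kir2.1 is an inwardly rectifying potassium channel that holds neurons near rest, so the comparison asks what follows when ganglion cell activity is damped. Brn3b is another name of Pou4f2, and whether the Cre sits in the Pou4f2 gene is not given in the sources used here.

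The labels disagree on points that bear on these groups. The age field gives P8 where the extraction protocol gives P11, and the genotype field gives wild type where the protocol names Brn3b-cre mice, so the controls may carry the Cre as well. The source field names ganglion cells, while the tissue field and the protocol describe whole dissociated retina with no sorting. The field values are used here. Nothing says that replicates came from separate animals, so p-values measure the spread between these libraries, which may be technical.

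Atoh7 is a basic helix-loop-helix factor that makes retinal progenitors able to become ganglion cells, and it acts before the others. Pou4f2 and the LIM-homeodomain factor Isl1 then start the ganglion cell programme, Pou4f1, Pou4f3 and Isl2 mark and shape subsets, and Ebf, Klf and SoxC factors act in differentiation, survival and axon growth. Ganglion cells are born before birth in the mouse and many die in the first postnatal days, while rods and bipolar cells are still being made.

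Gene counts per library ran from 9362215 to 12478838. Wild-type P4 replicate 2 stood apart from the other P4 libraries, with summed markers of dividing cells at 1123 CPM (counts scaled to library size) against 2451 to 3235 and summed rod markers at 1392 against 275 to 863. Rod markers in wild-type P8 ranged from 918 to 7873, against 7431 to 7667 in Kir2.1 P8. Kir2.1 P8 replicate 2 detected 31325 genes against 22609 to 24591 elsewhere. The 15 non-factor ganglion cell markers were detected throughout and summed to 2119 and 1461 CPM in wild-type P4, 592 to 1251 in Kir2.1 P4, 360 to 734 in wild-type P8 and 370 to 522 in Kir2.1 P8. In whole retina, fewer ganglion cells and less RNA per ganglion cell cannot be told apart. The part of these shifts in the results below was not tested except where a ratio to the markers is given.

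All 10 factors were lower at P8 than at P4 in the fitted means of both genotypes. In wild type 7 passed the test, all lower: Pou4f1, Pou4f2, Isl2, Ebf1, Ebf3, Klf7 and Sox11. Of all genes tested, 3.58% were called lower in that comparison and 4.39% in either direction (edgeR quasi-likelihood test, Benjamini-Hochberg adjusted p below 0.05). In Kir2.1 5 passed, again all lower, where 8.73% of all genes were called lower and 16.7% in either direction. Pou4f1, Pou4f2, Ebf3, Klf7 and Sox11 were called in both genotypes, as were 3.28% of all genes. The members had a median log2 change with age of -1.54 for wild-type retinas and -1.24 for Kir2.1 retinas, beside 0.03 and 0.005 over all genes. Pou4f3 and Atoh7 passed the low-count filter through P4 alone and had to be lower at P8, and over the other 8 members the medians were -1.45 and -0.995. No P8 library reached any P4 library for Isl2, Klf7 and Sox11, a separation that 7.1% of all genes showed. Within wild type the ages did not overlap for any of the 10 factors (16.9% of all genes were lower in this way), and within Kir2.1 for 7 of them (18.7%). Pou4f3 and Atoh7 are among the 10 and Atoh7 is among the 7, and nothing rests on their part in these counts.

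The wild-type count leaned on single libraries. A fit without a wild-type P4 library keeps a single one in that group, and the other groups then supply the spread. Without wild-type P4 replicate 1, only Pou4f1 of the members was called, along with 0.823% of all genes then tested, and 3 members and 2.97% of genes were called when wild-type P8 replicate 2 was the one omitted. Fitted on the 5 wild-type libraries alone, 0 of the 9 members then tested and 0.666% of genes were called. In Kir2.1 the count ran from 2 to 6 as single libraries were left out, while 9.76% to 12% of all genes were called.

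**Figure D1:**
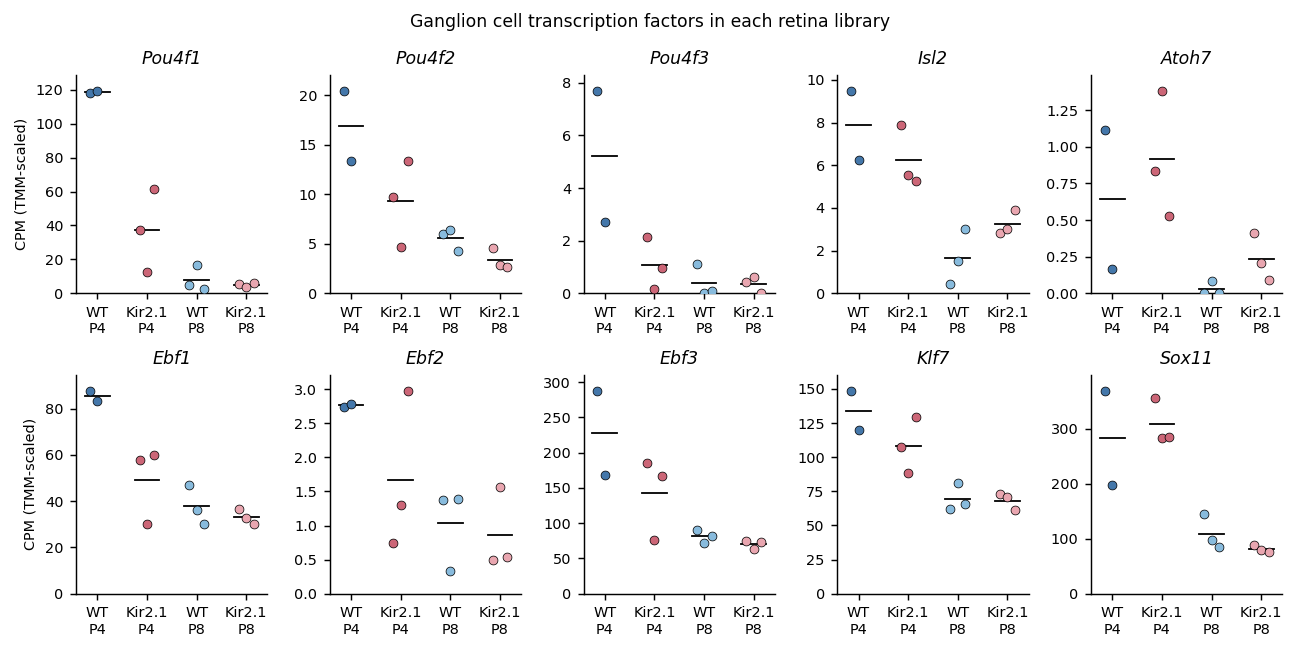
CPM (TMM-scaled, linear axis from 0) of each of the 10 factors in the 11 libraries, with points for libraries and lines for group means. Sox11 runs from 369 CPM in a wild-type P4 library to 75.1 in a Kir2.1 P8 library, and Pou4f1 from 119 in wild-type P4 to 2.85 in wild-type P8.

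The promoters of 3 members are shown because these genes represent 3 different courses in the values: Pou4f1, which fell furthest among the well-counted factors, Pou4f2, the gene whose name the Cre line carries, and Sox11, which had the highest mean level per length. Each run covers 250 bases before to 50 bases after the RefSeq gene start (GRCm38.p6, read 5′ to 3′ on the gene's strand), and capitals mark a match to CAGCTG, an E-box of the kind that basic helix-loop-helix factors such as Atoh7 bind. The windows are chr14:104467950-104468249 (minus strand) for Pou4f1, chr8:78436598-78436897 (minus strand) for Pou4f2 and chr12:27342669-27342968 (minus strand) for Sox11.
Pou4f1: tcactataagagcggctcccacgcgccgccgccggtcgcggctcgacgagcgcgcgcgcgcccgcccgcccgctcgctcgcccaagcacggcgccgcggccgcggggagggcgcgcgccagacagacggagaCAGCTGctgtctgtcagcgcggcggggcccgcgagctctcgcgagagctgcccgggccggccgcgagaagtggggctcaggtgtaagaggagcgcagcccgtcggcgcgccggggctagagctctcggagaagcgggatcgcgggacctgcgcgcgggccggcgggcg
Pou4f2: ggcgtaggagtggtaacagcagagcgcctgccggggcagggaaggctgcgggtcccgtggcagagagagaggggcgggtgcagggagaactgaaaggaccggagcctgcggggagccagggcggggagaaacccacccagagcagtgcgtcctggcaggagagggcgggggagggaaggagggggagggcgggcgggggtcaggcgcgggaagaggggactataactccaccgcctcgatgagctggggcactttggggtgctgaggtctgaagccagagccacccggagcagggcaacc
Sox11: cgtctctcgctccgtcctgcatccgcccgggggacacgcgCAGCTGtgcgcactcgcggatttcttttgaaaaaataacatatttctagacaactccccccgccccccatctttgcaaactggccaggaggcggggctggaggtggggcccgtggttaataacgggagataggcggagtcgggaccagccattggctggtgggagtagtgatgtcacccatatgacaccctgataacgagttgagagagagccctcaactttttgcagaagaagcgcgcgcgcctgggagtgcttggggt

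RefSeq windows outside chromosome 18 were used, and they covered 8 of the 10 members, without Pou4f3 and Ebf2. GC content was 78.3% in the Pou4f1 window, 69.7% for Pou4f2 and 58.7% for Sox11, beside a median of 52.7% over the 32851 such mouse windows. The Pou4f1 window held 57 CG dinucleotides and the Pou4f2 window 18. Searched on both strands, CAGCTG occurred in the windows of Pou4f1, at bases 133 to 138, and Sox11, at bases 41 to 46, and in 16.3% of all windows. GGGCGTG, a Klf-type element, occurred in 1 of the windows of Ebf1 and in 8.44% of all. No member window held CATTAA (the core of the Brn3 element, 8.84% of all windows), the EBF palindrome (0.904%), TAATTA (a homeodomain core, 5.29%) or ACAAAG (a Sox element, 18.7%). These are letter matches in short windows.

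Pou4f1, which marks many ganglion cell types and is needed for the dendrites of some of them, lies on chromosome 14 (104461676 to 104467999, minus strand, GRCm38). The wild-type P4 libraries held 118 and 119 CPM of it, and those of Kir2.1 P4 37.4, 12.6 and 61.3. At P8 it was 5.04, 16.5 and 2.85 in wild type and 5.80, 3.55 and 6.07 in Kir2.1. The wild-type P4 pair is close together, and wild-type P8 replicate 2 is the only P8 library above the lowest P4 library. The log2 change with age was -3.87 ± 0.65 (SE) in wild type, a 14.6-fold fall (edgeR adjusted p = 0.00479), and -2.84 ± 0.62 in Kir2.1, a 7.15-fold fall (edgeR adjusted p = 0.00879). With a library of the compared groups left out, the log2 change ran from -4.92 to -3.45 in wild type and from -3.26 to -2.27 in Kir2.1. Both calls were kept in these fits, which keep a single wild-type P4 library when the other is left out.

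Pou4f2, which is required for most ganglion cells to differentiate and survive, lies on chromosome 8 (78433010 to 78436645, minus strand). It stood at 20.4 and 13.4 CPM in wild-type P4 and at 9.77, 4.68 and 13.4 in Kir2.1 P4. It then stood at 5.96, 6.38 and 4.31 in wild-type P8 and at 4.56, 2.82 and 2.68 in Kir2.1 P8. Kir2.1 P4 replicate 2 was as low as the P8 libraries, and the other P4 libraries were all above them. The fall was 3.04-fold in wild type (log2 -1.61 ± 0.40, edgeR adjusted p = 0.0429) and 2.75-fold in Kir2.1 (log2 -1.46 ± 0.38, edgeR adjusted p = 0.0230). Under limma voom with sample quality weights the wild-type call was lost (adjusted p = 0.0517), as it was with the replicate number as a block. In edgeR it held in 1 of 5 fits with a library left out (edgeR adjusted p up to 0.528) and the Kir2.1 call in 2 of 6 (up to 0.0995), with log2 values from -1.88 to -1.27 and from -1.78 to -1.09.

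Pou4f3, a factor of a smaller ganglion cell subset and of hair cells in the ear, lies on chromosome 18 (42394539 to 42397249, plus strand) and was counted rarely. Its counts were 90 and 32 in wild-type P4, 23, 2 and 11 in Kir2.1 P4, 12, 0 and 1 in wild-type P8, and 5, 6 and 0 in Kir2.1 P8. The P4 rate was 14.0 times the P8 rate in wild type (122 against 13 counts, 95% exact interval 7.86 to 27.0) and 3.05 times in Kir2.1 (36 against 11, 1.52 to 6.65). These intervals cover counting error only. Against the spread between libraries neither fall passed (edgeR adjusted p = 0.120 in wild type and 0.428 in Kir2.1). The wild-type fall did pass without wild-type P8 replicate 1, which holds 12 of the 13 P8 counts (log2 -6.66, edgeR adjusted p = 0.0241), and with no filter on low counts (log2 -3.73, edgeR adjusted p = 4.33e-05). Pou4f3 passed the filter through P4 alone, so its age tests support nothing.

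Isl2, a LIM-homeodomain factor of ganglion cells that project to the opposite side of the brain, lies on chromosome 9 (55538672 to 55546180, plus strand). It measured 9.49 and 6.26 CPM in wild-type P4, 7.91, 5.53 and 5.25 in Kir2.1 P4, 0.458, 1.53 and 3.01 in wild-type P8, and 2.82, 3.03 and 3.93 in Kir2.1 P8. Every P4 library exceeded every P8 library, and at P8 only wild-type replicate 3 reached the Kir2.1 range. The wild-type fall was 4.66-fold (log2 -2.22 ± 0.53, edgeR adjusted p = 0.0331) and held in 3 of 5 fits with a library left out (adjusted p 0.00755 to 0.392). The wild-type call was lost with the replicate number as a block. In Kir2.1 the change was 1.91-fold (log2 -0.93 ± 0.47, edgeR adjusted p = 0.211). The difference between these changes was 1.29 on the log2 scale, and it was not called (edgeR adjusted p = 0.9998).

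Atoh7, on chromosome 10 (63099651 to 63101279, plus strand), was at the limit of detection, with 57 counts in the 11 libraries together. There were 13 and 2 counts in wild-type P4, 9, 18 and 6 in Kir2.1 P4, 0, 1 and 0 in wild-type P8, and 5, 2 and 1 in Kir2.1 P8. The P4 rate was 22.3 times the P8 rate in wild type (15 counts against 1, 95% exact interval 3.43 to 939) and 3.85 times in Kir2.1 (33 against 8, 1.74 to 9.65), counting error only. Neither passed against the spread between libraries (edgeR adjusted p = 0.108 and 0.207). Most of its counts came from P4, so it entered the tested set through that age, and its age ratios and tests support nothing.

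The Ebf genes encode related helix-loop-helix factors that act below Pou4f2 in ganglion cells and also in amacrine cells. Ebf3, on chromosome 7 (137193673 to 137314445, minus strand), gave 287 and 168 CPM in wild-type P4 and 185, 76.7 and 166 in Kir2.1 P4. It gave 90.9, 72.1 and 81.5 in wild-type P8 and 74.6, 62.9 and 72.7 in Kir2.1 P8. As for Pou4f2, Kir2.1 P4 replicate 2 lay among the P8 libraries and the other P4 libraries lay above them. Ebf3 fell 2.79-fold in wild type (log2 -1.48 ± 0.31, edgeR adjusted p = 0.0154) and 2.03-fold in Kir2.1 (log2 -1.02 ± 0.28, edgeR adjusted p = 0.0271). With a library left out the calls held in 3 of 5 fits (adjusted p 0.00625 to 0.348) and 1 of 6 (0.00272 to 0.113).

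Ebf1, on chromosome 11 (44617317 to 45008091, plus strand), was read at 87.6 and 83.2 CPM in wild-type P4, 57.7, 30.2 and 60.2 in Kir2.1 P4, 46.9, 36.3 and 30.3 in wild-type P8, and 36.4, 32.6 and 30.2 in Kir2.1 P8. The wild-type P4 pair is above every other library. The wild-type fall was 2.26-fold (log2 -1.18 ± 0.26, edgeR adjusted p = 0.0211), kept in 3 of 5 fits with a library left out (adjusted p 0.0110 to 0.213). In Kir2.1 the 1.49-fold change did not pass (log2 -0.58 ± 0.23, edgeR adjusted p = 0.119), and without Kir2.1 P4 replicate 2 it did (log2 -0.84, edgeR adjusted p = 0.0131). Ebf2, on chromosome 14 (67233292 to 67430918, plus strand), ranged from 0.340 to 2.97 CPM over the 11 libraries. Its log2 changes of -1.41 ± 0.74 in wild type and -0.97 in Kir2.1 did not pass (edgeR adjusted p = 0.329 and 0.404).

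Klf7, a zinc finger factor that promotes axon growth, lies on chromosome 1 (64029447 to 64122282, minus strand). Its level was 148 and 119.6 CPM in wild-type P4, 107, 88.3 and 129 in Kir2.1 P4, 61.9, 81.0 and 65.3 in wild-type P8, and 72.8, 70.9 and 61.1 in Kir2.1 P8. P4 and P8 libraries do not overlap, by a margin of 88.3 against 81.0. This was the smallest called change among the members, 1.93-fold in wild type (log2 -0.95 ± 0.18, edgeR adjusted p = 0.00870) and 1.59-fold in Kir2.1 (log2 -0.67 ± 0.16, edgeR adjusted p = 0.0145). The wild-type call was lost without wild-type P4 replicate 1 (adjusted p = 0.182), and the Kir2.1 call held in 4 of 6 fits (adjusted p up to 0.0671). An opposite-strand gene, Gm26649, shares 3196 exon bases with Klf7 and had 2 to 15 counts per library. Shared opposite-strand exon bases number 424 for Ebf2 and 355 for Ebf3, and whether counting used strand is not given in the sources used here.

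Sox11, a SoxC factor of immature neurons that supports ganglion cell differentiation, is a single-exon gene on chromosome 12 (27334264 to 27342574, minus strand). Its values were 369 and 198 CPM in wild-type P4, 357, 284 and 284.5 in Kir2.1 P4, 145, 96.9 and 84.9 in wild-type P8, and 89.5, 79.3 and 75.1 in Kir2.1 P8. The lowest P4 value belonged to wild-type P4 replicate 2, the library with fewer dividing-cell counts. Sox11 fell 2.61-fold in wild type (log2 -1.38 ± 0.25, edgeR adjusted p = 0.00846) and 3.79-fold in Kir2.1 (log2 -1.92 ± 0.24, edgeR adjusted p = 0.000345). The Kir2.1 call survived every omitted library, and the wild-type call was lost without wild-type P4 replicate 1 (log2 -0.87, edgeR adjusted p = 0.219). All 12 markers of dividing cells also fell in both genotypes by the same test, from summed levels of 1123 to 3235 CPM at P4 to 107 to 168 at P8; their part in the Sox11 values was not tested.

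**Figure D2:**
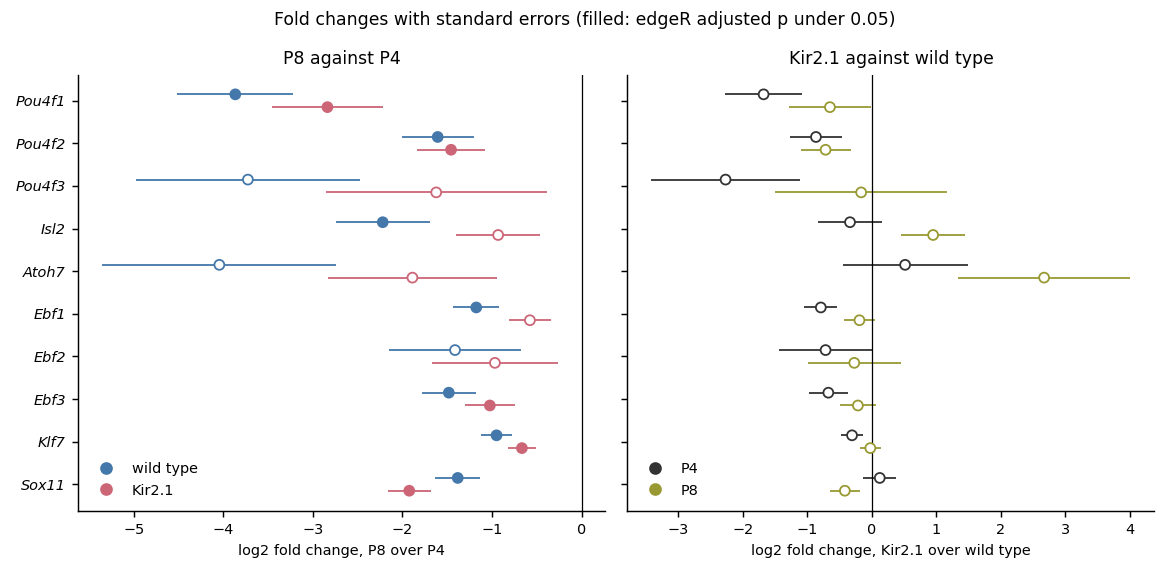
Log2 fold changes of the 10 factors with standard errors, for P8 against P4 in each genotype and for Kir2.1 against wild type at each age, with filled points where the edgeR adjusted p is below 0.05. All age changes lie left of 0, from -4.04 to -0.58, with 7 filled points in wild type and 5 in Kir2.1, and no genotype point is filled.

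An exact permutation test of each member alone, exchanging ages within genotype over 200 splits, gave a two-sided p of 0.05 or less for 9 of 10 members, each lower at P8. Of all genes tested, 33.7% reached that level and 17% did so as lower. The value was 0.005, the smallest these splits allow, for Pou4f1, Pou4f2, Ebf3, Klf7 and Sox11. Atoh7 is among the 9, and since it entered the tested set through P4 nothing rests on its value. Pou4f3, which entered in the same way, was the exception (exact p = 0.055).

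Per kilobase of exon, Sox11 had the highest mean of the members in each group, at 34.1 ± 14.6 CPM per kb in wild-type P4 (SD, n = 2) and 13.1 ± 3.8 in wild-type P8 (SD, n = 3). Pou4f1 came next in wild-type P4, at 25.4 ± 0.207, which lies within the Sox11 range of 23.8 to 44.4, beside Ebf3 at 24.7 ± 9.13 and Klf7 at 16.5 ± 2.51. The Ebf3 libraries, at 18.2 and 31.1, lay on both sides of the Pou4f1 values, so the order of these 3 is within the spread. Pou4f1 ranked below Sox11, Ebf3 and Klf7 in Kir2.1 P4, at 7.94 ± 5.22 (n = 3), and in wild-type P8 below Ebf1 as well, at 1.74 ± 1.57, next to Pou4f2 at 1.73 ± 0.341. Ebf3 and Klf7 held 8.83 ± 1.02 and 8.54 ± 1.25 in wild-type P8, with overlapping ranges. Isl2 was at 3.59 ± 1.04 in wild-type P4 and 0.760 ± 0.584 in wild-type P8. The group means of Atoh7 were 0.0174 to 0.561 on this scale and those of Ebf2 0.125 to 0.399, with single libraries up to 0.848 and 0.429.

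Ganglion cell markers fell with age too: 10 of 15 were called lower in wild type and 10 of 15 in Kir2.1, where 1 was called higher. Each member was therefore divided by the summed level of the 15 markers in its library. Pou4f1 was 5.57% and 8.17% of the marker sum in wild-type P4, 3.34%, 2.13% and 4.90% in Kir2.1 P4, 0.812%, 2.25% and 0.792% in wild-type P8, and 1.11%, 0.959% and 1.32% in Kir2.1 P8. Relative to the markers it fell by 2.05 on the log2 scale with age, 4.13-fold (exact permutation p = 0.005). Pou4f2 was 0.964% and 0.915% of the marker sum in wild-type P4, 0.872%, 0.791% and 1.07% in Kir2.1 P4, 0.959%, 0.869% and 1.20% in wild-type P8, and 0.874%, 0.762% and 0.584% in Kir2.1 P8. The ratio thus ran from 0.584% to 1.20%, and P4 and P8 libraries overlapped. Its log2 change with age of -0.10 did not pass (exact permutation p = 0.51) and averages 0.10 in wild type and -0.30 in Kir2.1, a difference that was not tested.

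Ebf1 and Klf7 went the other way. Ebf1 was 4.14% and 5.69% of the marker sum in wild-type P4, 4.81% to 5.15% in Kir2.1 P4, 4.95% to 8.41% in wild-type P8 and 6.58% to 8.80% in Kir2.1 P8, a rise of 0.52 on the log2 scale (exact permutation p = 0.015). Klf7 went from 7.01% and 8.19% in wild-type P4 and 9.57% to 14.9% in Kir2.1 P4 to 9.98% to 18.2% and 13.3% to 19.2% at P8, a rise of 0.58 (exact permutation p = 0.035). These genes thus fell less than the markers did, and Pou4f1, Ebf1 and Klf7 were the 3 of 10 members at or below 0.05. Of all genes, 77.6% reached that level against the same marker sum and 1.29% did so as lower, so the share of members was below that of all genes, most of which rose against the markers as Ebf1 and Klf7 did. The ratios of Ebf3 (log2 change 0.20), Sox11 (-0.25), Isl2 (-0.34), Atoh7 (-1.03), Ebf2 (0.13) and Pou4f3 (-1.78) did not pass (exact permutation p of 0.12 to 0.85). The Sox11 and Isl2 values average opposite directions, 0.33 in wild type and -0.84 in Kir2.1 for Sox11, and -0.84 and 0.16 for Isl2, and the difference between genotypes in these changes was not tested.

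The markers did not fall alike, and the denominator mattered. Rbpms, an RNA-binding protein found in ganglion cells, fell by 3.55 on the log2 scale in wild type (edgeR adjusted p = 0.00422) and by 2.34 in Kir2.1 (edgeR adjusted p = 0.0121). Slc17a6, their glutamate transporter, fell in both genotypes (log2 -3.49 and -2.67, edgeR adjusted p = 0.00403 and 0.00600). The wider neuronal gene Tubb3 fell less (log2 -1.25 and -0.92, edgeR adjusted p = 0.0178 and 0.0228). Divided by Rbpms alone, Pou4f1 changed by -0.37 and no longer passed. The same denominator turned the direction for Pou4f2 (1.58), Sox11 (1.43), Isl2 (1.34) and Atoh7 (0.65). For Pou4f2 the ratio to Rbpms was higher in every P8 library than in any P4 library, so its result depends on the denominator. Leaving out wild-type P4 replicate 1 left 1 of the 3 ratio results, Pou4f1.

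**Figure D3:**
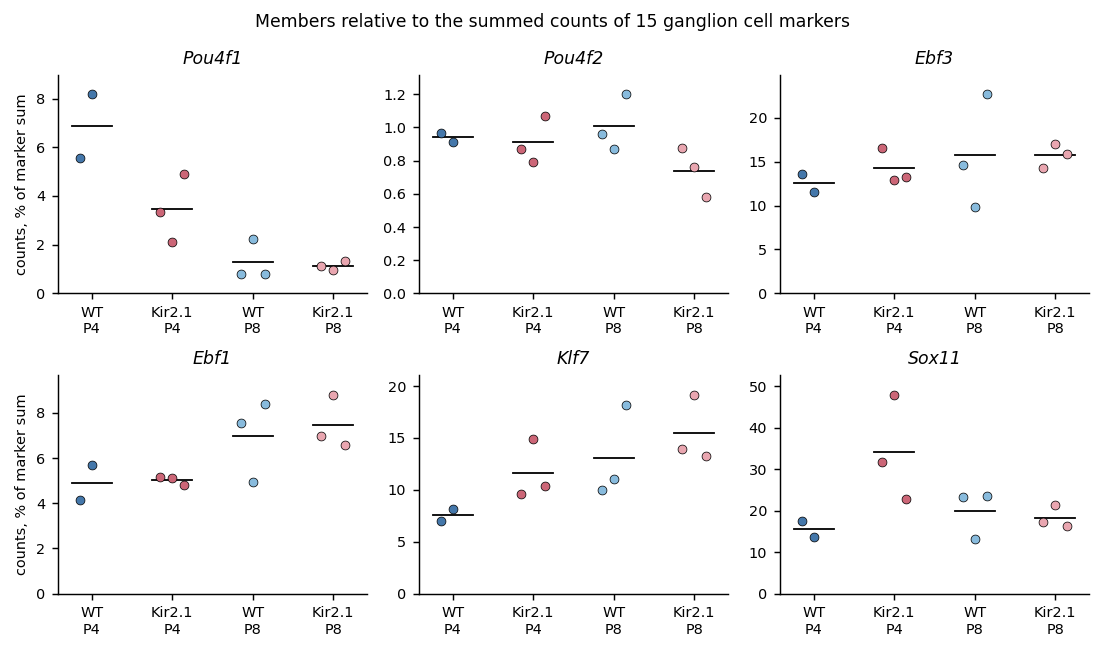
Level of 6 factors as a percentage of the summed level of 15 ganglion cell markers in the same library (linear axes from 0; points are libraries, lines group means). Pou4f1 drops from 5.57% and 8.17% in wild-type P4 to 2.25% or less at P8, Pou4f2 lies between 0.584% and 1.20% at both ages, and Ebf1 and Klf7 rise.

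Kir2.1 libraries were lower than wild type for most members at P4, by amounts that did not pass. At P4 8 of 10 members were lower in Kir2.1, with a median log2 difference of -0.70 beside 0.01 over all genes, and 0 of 10 were called, as were 0% of all genes tested (smallest edgeR adjusted p over all genes 0.458). At an unadjusted edgeR p below 0.05, 4 members stood out, all lower, where 4.72% of all genes were lower at that level and 7.22% differed in either direction. They were Pou4f1 (log2 -1.68 ± 0.60, edgeR adjusted p = 0.677), Ebf1 (-0.79 ± 0.25, 0.677), Pou4f2 (-0.87 ± 0.40, 0.688) and Ebf3 (-0.68 ± 0.30, 0.682). This count of 4 became 2 with DESeq2 size factors and 5 under limma voom, without a share of all genes for either. No Kir2.1 P4 library reached the wild-type P4 values for Pou4f1, Ebf1 and Pou4f3, and 14.4% of all genes were lower without overlap in this way. For Pou4f1 the gap was wide, 61.3 CPM in the highest Kir2.1 library against 118 in the lower wild-type one.

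All 15 ganglion cell markers were also lower in Kir2.1 at P4, with a median of -1.01, none called, and 11 of 15 without overlap. Vascular markers moved in the same direction, with 9 of 10 lower and a median of -1.07, none called. Pecam1, an endothelial adhesion molecule, was at 11.6 and 12.1 CPM in wild-type P4 and 2.63 to 6.98 in Kir2.1 P4, and Tek, Esam and Tie1 did not overlap either. Summed vascular levels did overlap, at 466 and 587 CPM against 449 to 753, and most of that sum was Kdr, the 1 vascular marker with a higher mean in Kir2.1 (560 against 438 CPM). Of the amacrine markers 9 of 12 were lower (median -0.17), among them Chat, Slc18a3 and Slc5a7, the cholinergic genes of starburst cells, without overlap.

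Horizontal cell markers were lower in 3 of 3, with sums of 6.99 to 22.1 CPM in Kir2.1 P4 against 26.3 and 34.9. Pigment epithelium markers summed to 1.84 to 2.23 CPM against 3.30 and 3.76, with Rpe65 and Mlana at 0 in all P4 libraries. Of the 4 tested, 2 were lower and 2 higher (median 0.08), with Best1 lower and Rgr higher without overlap. Microglia markers were higher in 8 of 8 (median 0.27, sums overlapping), and Mueller glia markers in 8 of 10, with sums of 1687 to 2204 against 1564 and 1440. By fitted means 10 of 12 rod and 10 of 11 bipolar markers were lower and 12 of 12 dividing-cell markers higher, but the wild-type replicates 1 and 2 lie far apart in these 3 lists. Rod sums were 275 and 1392 CPM against 505 to 863 in Kir2.1, bipolar sums 270 and 459 against 279 to 367, and dividing-cell sums 3092 and 1123 against 2451 to 3235. None of these markers was called, and their part in the member values was not tested.

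Kir2.1 P4 replicate 2 had the lowest ganglion cell marker sum of the P4 libraries, 592 CPM, and the lowest values of Pou4f1, Pou4f2, Pou4f3, Ebf1, Ebf3 and Klf7 among them. Without it the P4 differences were -1.26 for Pou4f1 and -0.53 for Ebf1. Sox11 and Atoh7 were the 2 members with a higher fitted mean in Kir2.1 at P4, at 0.12 and 0.51, and both turned direction with a single wild-type library left out. Without wild-type P4 replicate 1 Sox11 was at 0.64, and without replicate 2 at -0.26.

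At P8 0 of 10 members were called, again as for 0% of all genes, and none had an unadjusted p below 0.05, a level that 6.82% of all genes reached. The median log2 difference was -0.21, beside 0.003 over all genes. Values were -0.65 ± 0.63 for Pou4f1, -0.72 ± 0.39 for Pou4f2, -0.42 ± 0.23 for Sox11 and 0.95 ± 0.50 for Isl2 (edgeR adjusted p of 0.699 to 0.8). Pou4f1 turned to 0.40 without wild-type P8 replicate 2, and Isl2 ran from 0.51 to 1.69 as single libraries were left out. Atoh7 had 8 counts in Kir2.1 P8 and 1 in wild-type P8, and 1 library of each genotype held a single count. Cell type markers differed at this age too, none called. In Kir2.1 14 of 15 ganglion cell markers were lower (median -0.38) and 12 of 12 amacrine markers (-0.54), with sums that overlapped wild type, and 12 of 12 rod markers were higher (0.88), with the wide wild-type range given above. Also higher were 8 of 8 microglia (0.42), 8 of 10 vascular (0.35), 9 of 10 Mueller glia (0.13) and 9 of 11 bipolar markers (0.17), with overlapping sums. Sums were higher without overlap for dividing cells, at 123 to 168 CPM against 107 to 116 (10 of 12 markers higher), and for pigment epithelium, at 3.23 to 20.8 against 0.550 to 1.14. The highest pigment epithelium sum was that of Kir2.1 P8 replicate 2. The part of these shifts in the member values was not tested.

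Averaged over both ages 0 of 10 members and 0% of all genes were called, and 3 members had an unadjusted edgeR p below 0.05 (11.7% of all genes in either direction and 7.38% lower): Pou4f1 (-1.17 ± 0.44), Pou4f2 (-0.79 ± 0.28) and Ebf1 (-0.49 ± 0.17), each at an edgeR adjusted p of 0.367. Tested alone, with genotypes exchanged within age, Pou4f2 was lower by 0.85 on the log2 scale, 1.80-fold (exact permutation p = 0.03). It was the 1 of 10 members at or below 0.05, a level that 11.3% of all genes reached, so the share of members was near that of all genes. It did not pass without Kir2.1 P4 replicate 1, without Kir2.1 P4 replicate 2 or without wild-type P8 replicate 1. As a ratio to the markers, the Pou4f2 difference was -0.25 (exact permutation p = 0.12) and that of Pou4f1 -0.53 (exact permutation p = 0.215). Atoh7 relative to the markers was higher in Kir2.1 by 2.04 (exact permutation p = 0.015), on the 57 counts given above. In this ratio 1 of 10 members and 16.4% of all genes were at 0.05 or less. The Atoh7 result did not pass without wild-type P4 replicate 2.

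The difference of the Kir2.1 effect between ages was called for 0 of 10 members and 0% of all genes, with no member at an unadjusted p below 0.05 (3.09% of all genes). With no filter on low counts, edgeR called Pou4f1, Ebf1 and Ebf3 lower in Kir2.1 at P4 (adjusted p = 1.93e-13, 0.00380 and 0.00498), among 0.928% of the genes then tested. It also called these and Pou4f2 averaged over ages, among 2.47%. On the same counts the main fit gave Pou4f1 an unadjusted edgeR p of 0.016 at P4. The unfiltered fit tested 36534 genes, many with very low counts, and what lowered its p-values was not tested. Nothing rests on these calls. DESeq2, limma-voom and the other filters and scalings tried called no member between genotypes.

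In the authors' deposited table for P4, Sox11 was the 1 member called of the 7 with an adjusted p, higher in Kir2.1 (log2 0.69, adjusted p = 0.00352), where 2.27% of the genes with an adjusted p were called. In the authors' deposited table for P8, Sox11 was again the 1 member called, of 6 with an adjusted p, lower in Kir2.1 (log2 -0.62, adjusted p = 0.0432), where 7.27% were called. Pou4f3, Atoh7 and Ebf2 had no adjusted p in the authors' deposited tables at either age. Isl2 had none in the authors' deposited table for P8, where it stood at 1.67 (unadjusted p = 0.0189). The authors' deposited tables gave Pou4f1 at -1.78 at P4 (adjusted p = 0.259) and -1.19 at P8 (adjusted p = 0.199). In the edgeR fit over all 11 libraries Sox11 kept the sign at both ages, at 0.12 and -0.42, and neither was called. Which libraries entered the authors' deposited tables is not given in the sources used here.

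Other factors of the same network moved with age in both directions. Of 12 upstream regulators, which act mainly in progenitors, 1 was called higher and 4 lower in wild type, and 3 higher and 8 lower in Kir2.1. Of all genes, 0.803% were called higher and 3.58% lower in wild type, and 7.93% higher and 8.73% lower in Kir2.1, while 0 of the 10 members were called higher in either. Neurod4 rose by 1.03 in wild type (edgeR adjusted p = 0.0449) and Neurod1, which also acts in photoreceptors, by 1.18 in Kir2.1 (edgeR adjusted p = 0.0123). Of 30 partner and subtype factors, 4 were called higher and 9 lower in wild type, and 4 higher and 12 lower in Kir2.1, against the same shares of all genes. Of those called lower, Tbx20 and Irx2 in both genotypes and Dlx2 in Kir2.1 passed the low-count filter through P4 alone. None of the 42 genes was called between genotypes.

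Isl1, a partner of Pou4f2, was higher at P8. It stood at 72.2 and 125 CPM in wild-type P4, 28.9, 10.6 and 38.9 in Kir2.1 P4, 163, 210.4 and 303 in wild-type P8, and 280.1, 269 and 265 in Kir2.1 P8. It is also a factor of bipolar and some amacrine cells, and summed bipolar markers ran from 270 to 459 CPM at P4 and 519 to 1758 at P8. The part of these cells in the Isl1 values was not tested. Isl1 was higher at P8 by 3.38 in Kir2.1 (edgeR adjusted p = 0.000256) and by 1.19 in wild type (edgeR adjusted p = 0.139). Every library at P8 lay above every library at P4, as for 4.55% of all genes.

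Among factors of ganglion cell subtypes, Eomes (Tbr2), found in intrinsically photosensitive ganglion cells, fell by 3.07 in wild type (edgeR adjusted p = 0.000171) and by 2.88 in Kir2.1 (edgeR adjusted p = 7.16e-05). Since they passed the filter through P4 alone, Tbx20, Irx2 and Dlx2 are given by their counts, and nothing rests on an age test of them. Tbx20 went from 612 counts at P4 to 14 at P8 in wild type, a rate ratio of 65.0 (95% exact interval 38.4 to 120), and from 449 to 16 in Kir2.1, a ratio of 26.2 (15.9 to 46.2). Irx2 went from 242 counts to 4 in wild type, a rate ratio of 89.9 (34.7 to 333), and from 113 to 10 in Kir2.1, a ratio of 10.5 (5.53 to 22.6). Dlx2 went from 69 counts to 8 in Kir2.1, a ratio of 8.05 (3.86 to 19.4). These intervals cover counting error only and leave out the spread between libraries. The filter fixed the direction of these ratios, so the intervals support nothing either. Tbr1, of another ganglion cell subset, changed by 0.35 and -0.03 (edgeR adjusted p = 0.802 and 0.981). On the other side St18 rose by 1.47 and 2.02 (edgeR adjusted p = 0.00633 and 0.000207). Klf9, which restrains axon growth, rose by 1.29 and 2.17 (edgeR adjusted p = 0.0317 and 0.000345). Nhlh1 rose by 1.89 in wild type (edgeR adjusted p = 0.0280), and in Kir2.1 its mean was 2.75 CPM at P4 and 5.18 at P8.

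The genes whose course over the 11 libraries lay closest to a member were found among 12233 genes with a mean of at least 5 CPM, by the root-mean-square difference of log2 CPM centred on each gene's mean. For Pou4f1, whose own SD over the libraries was 1.9, they were Slc17a6 (0.445), Rbpms (0.5) and Sncg (0.524), all 3 from the marker list. For Pou4f2 (SD 0.907) they were Ptpn5 (0.219), Stmn2 (0.285) and Ablim3 (0.289), and for Ebf3 (SD 0.701) Chl1 (0.230), Tubb2b (0.234) and Tes (0.238). Stmn2 and Tubb2b encode proteins of the neuronal cytoskeleton and Chl1 a neural adhesion molecule. Sox11 (SD 0.881) had Prim1 (0.169), Bard1 (0.190) and Cdc25b (0.202) nearest, genes of DNA replication, DNA repair and entry into mitosis. Isl2 (SD 1.14) had Bub1b (0.442), Pawr (0.476) and Chaf1a (0.499), with a looser match. The points share the same libraries and their depth, and the measure is a description without a test.

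**Figure D4:**
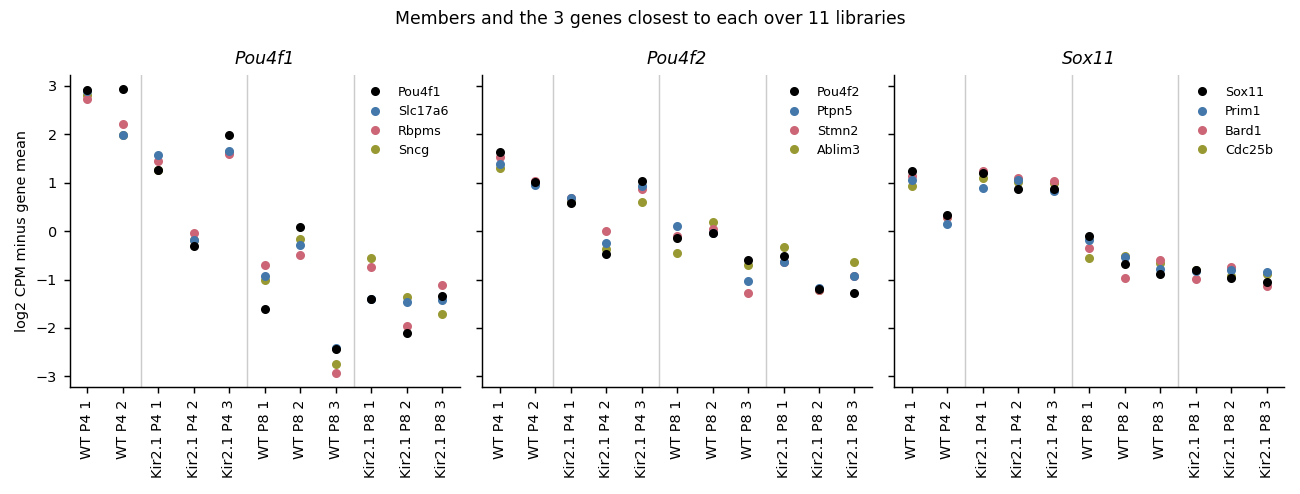
Log2 CPM minus each gene's mean for Pou4f1, Pou4f2 and Sox11 (black points) and the 3 genes nearest to each (coloured points) in the 11 libraries, with vertical lines between groups. The points lie closest together for Sox11, with root-mean-square differences of 0.169 to 0.202, and furthest apart for Pou4f1, with 0.445 to 0.524.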

How the data were processed

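RNA-seq was done on retinas in 11 libraries. The authors deposited 1 table of whole-number counts per Ensembl gene for each library. The submitters' processing notes name cutadapt 1.18, STAR 2.5.0c, SAMtools 1.9, bedtools 2.26.0, HTSeq 0.6.1, DESeq2 and mm10, with no roles; the annotation release and strand setting are not given in the sources used here. Records that name no gene, 74.57% to 79.83% of a library, were left out. The authors also deposited a comparison table per age. Per the file headers these hold a mean normalized signal, log2 fold changes, a test statistic (a score), p-values and adjusted p-values, and they are quoted as the authors' own.

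Counts were fitted with edgeR 4.0.16 (R 4.3.3): 4 group means over 11 libraries, filterByExpr, TMM, quasi-likelihood tests, Benjamini-Hochberg over 18188 genes, threshold 0.05. Log2 CPM used a prior count of 0.5. Permutation tests were exact and two-sided (200 splits within age or genotype, smallest p 0.005). Coordinates came from GENCODE (GRCm38) and promoters from RefSeq (GRCm38.p6). The members and lists were chosen with earlier results of these data known. From the pathway lists, Isl1, Eomes and Tbr1 were named in any case, with the 4 highest and 4 lowest called changes with age per genotype. A gene that this rule names is not reported here. The scripts were tested on simulated data. Alternatives were DESeq2 1.42.0 (size factors, test), limma 3.58.1 (voom with quality weights), filters, removal of dominant genes, a replicate block, the compared groups alone and each library left out.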

Additional observations from a re-analysis of the deposited data

How the results depend on the processing

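Counts of called members kept within 1.5 times of the reported value in most settings. With no filter on low counts, 3 members were called between genotypes at P4 and 4 averaged over ages. Of the genes then tested, 0.928% and 2.47% were called, and nothing rests on these calls. Fitted on the groups compared alone, 0 of the 9 members then tested were called with age in wild type; this fit has 5 libraries. On total gene counts instead of TMM, 3 members had a permutation p of 0.05 or less between genotypes. For this setting, and for the permutation counts with a library left out below, the share of all genes was not computed. Those counts are therefore not read as results about the members. With each library left out, called members ranged from 1 to 7 with age in wild type and from 2 to 6 in Kir2.1. Members at a permutation p of 0.05 or less ranged from 0 to 2 between genotypes, from 1 to 3 for the ratio to markers with age and from 0 to 3 for the ratio between genotypes.

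Some directions turned. Between genotypes at P8, Pou4f3 was 1.18 and Ebf2 0.35 under voom. With Rbpms as the denominator the ratio changes with age were 1.58 for Pou4f2, 1.34 for Isl2, 0.65 for Atoh7 and 1.43 for Sox11. With a library left out, log2 values crossed 0 at P4 for Atoh7 (-0.27 to 2.36) and Sox11 (-0.26 to 0.64). At P8 they crossed it for Pou4f1 (-1.06 to 0.40), Pou4f3 (-0.82 to 2.74), Ebf2 (-0.98 to 0.0089) and Klf7 (-0.10 to 0.10). They also did for the difference between ages of Pou4f2 (-0.19 to 0.51) and the ratios with age of Isl2 (-0.79 to 0.057) and Ebf2 (-0.19 to 0.55). The causes were not tested.

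Same-numbered libraries correlated at -0.0583 to 0.111 (median 0.0332, 3 of 15 pairs over 0.1). Differently numbered ones correlated at -0.131 to 0.107 (median -0.0136, 1 of 30 pairs over 0.1). With so few libraries per group, these values cannot tell whether the replicate numbers pair the libraries. With the replicate number as a block, 5 members were called with age in wild type (3.07% of all genes), without Pou4f2 (edgeR adjusted p = 0.0691) and Isl2 (0.0539). In Kir2.1 5 were called (16.1%) and between genotypes 0 (0%), where Pou4f3 at P8 was 0.29. Depth limits Atoh7, Pou4f3 and Ebf2, with 57, 182 and 187 counts in all.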
